A study of Physcomitrium patens with 6 samples.

Results

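The 200 genes that gave the most reads in wild type protonema of the moss *Physcomitrium patens* were followed into the *Ppddm1* mutant. They were chosen from the 31967 genes of the count table by their mean level in the 3 wild type libraries, in CPM, the count of a gene scaled to the total of its library. All 200 had enough counts to be tested, among 19626 genes tested. The wild type levels are therefore a description of the choice and carry no test. A long transcript gives more reads than a short one at the same number of molecules, and transcript lengths were not used here, so the order is one of reads and not of transcripts.

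RNA was sequenced from *Ppddm1* and from wild type, both labelled as strain Grandsen (line Grandsen2004 in the methods), as protonema grown for 7 days on BCDAT medium at 25 °C with 16 h of light and 8 h of dark. In *Ppddm1* the coding region of PpDDM1 had been replaced by a Zeocin resistance cassette. The paper reports a knockout plant in the singular and names no other line, so the mutant is taken here to stand for a single transformed line. Each genotype had 3 libraries, with replicates 1 and 2 in batch 1 of the labels and replicate 3 in batch 2. Whether each library had its own culture is not stated in the sources used here, and the p-values below then rest on variation among libraries that may be technical. The libraries held from 3767473 to 10536543 counts in *Ppddm1* and from 2784259 to 6079718 counts in wild type. For *Ppddm1* replicate 3, the library with 10536543 counts, the paper lists fewer reads than that. Wild type replicate 3, also of batch 2, came close to its listed reads, and the batch 1 libraries stayed well below theirs. These differences were not resolved. PpDDM1 (Pp3c17_19520) had 1.06, 0.974 and 1.04 CPM in *Ppddm1* and 15.1, 18.3 and 26.5 CPM in wild type, so each library matched its label. Replicate 1 of each genotype stood apart from replicates 2 and 3, as described below, and the main counts and the changes of the genes that fell are also given without it. The identifiers are not paired with gene names in the tables used here. For this reason the tissue could not be checked against marker genes, no function is given to any member, and the genes that fell are mostly given by their rank in wild type.

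Protonema is the young filamentous stage of the moss, made of chloroplast-rich chloronema cells and of the faster growing caulonema cells that arise from them. In green plant tissue the polyA RNA is as a rule dominated by a small number of nuclear genes, commonly those of photosynthesis and of protein synthesis. DDM1 is a chromatin remodeler that helps DNA methyltransferases reach nucleosomal DNA, mainly in transposable elements (TEs).

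The 200 genes were 1.02% of the tested genes and held about 21% of all counts. Their summed share was 21.4%, 21.3% and 20.7% of the counts in the *Ppddm1* libraries and 21.9%, 21.7% and 21.4% in the wild type libraries. The means were 21.1% ± 0.387 (SD, n = 3) in *Ppddm1* and 21.7% ± 0.229 (SD, n = 3) in wild type, a difference of -0.567 percentage points (-0.344 without *Ppddm1* replicate 3). The genotypes did not overlap, with *Ppddm1* below, but the members were picked for being high in wild type. In bulk RNA, fewer cells of a type and less RNA per cell cannot be told apart. With 200 genes picked on the mean of all 6 libraries, the difference was -0.173 points (21.4% ± 0.317 in *Ppddm1* and 21.6% ± 0.208 in wild type, SD, n = 3 each). This was within the spread of the libraries (two-sided exact permutation test, p = 0.6). With 200 genes picked on the *Ppddm1* libraries it was 0.268 points, with the opposite sign. The 200 highest genes of each library, whichever they were, held 21.7% ± 0.320 (SD, n = 3) in *Ppddm1* and 21.8% ± 0.309 (SD, n = 3) in wild type (two-sided exact permutation test, p = 0.7). The sign of the last difference turned without *Ppddm1* replicate 3 (0.0553 points) and without wild type replicate 1 (0.0507 points). Of these 4 choices of genes, the one made on wild type was the only one in which the genotypes did not overlap.

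**Figure D1:**
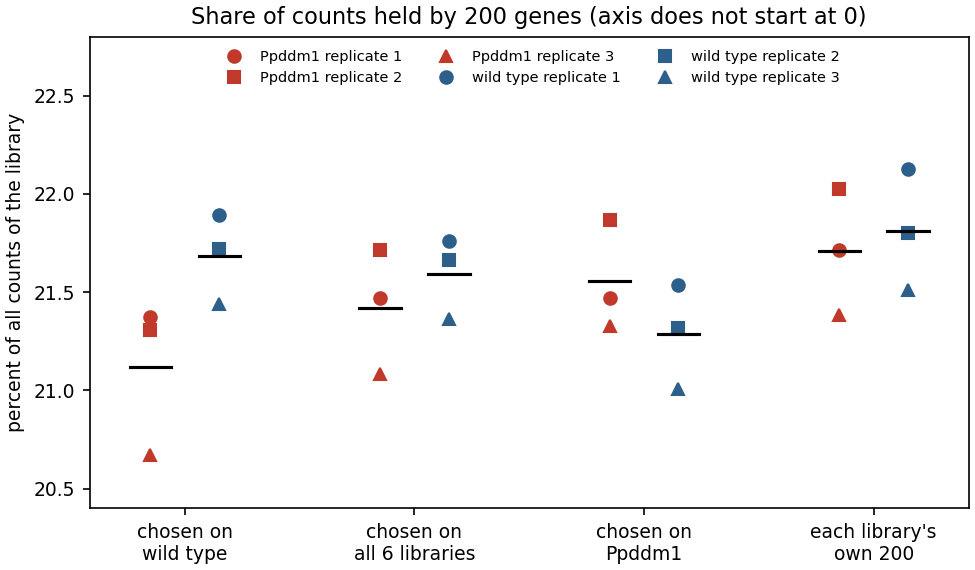
Share of all counts of a library (percent, y axis) held by 200 genes, for 4 ways of choosing them (x axis), with 1 point per library and a black bar for the mean of a genotype. The *Ppddm1* mean is 21.1% against 21.7% in wild type for genes chosen on wild type, and 21.7% against 21.8% for the 200 highest genes of each library.

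How strongly the reads were concentrated overlapped between the genotypes. Between 1322 and 1332 genes were needed to hold 50% of the gene counts in the *Ppddm1* libraries, and between 1282 and 1366 in the wild type libraries. The 10 highest genes of each library held 3.91% ± 0.142 (SD, n = 3) in *Ppddm1* and 4.09% ± 0.0666 (SD, n = 3) in wild type (two-sided exact permutation test, p = 0.2). The single highest gene held 0.521% ± 0.0146 in *Ppddm1* and 0.578% ± 0.0207 in wild type (SD, n = 3 each), with no overlap between genotypes (two-sided exact permutation test, p = 0.1, the lowest p that 3 against 3 can give). The levels of the members spanned 202 to 5119 CPM in *Ppddm1* (median 769) and 525 to 5782 CPM in wild type (median 755).

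Of the 10 most abundant genes, 9 did not pass the test between genotypes and 1 fell in *Ppddm1*. The highest was Pp3c13_7900 on chromosome 13, with 5223, 4941 and 4474 CPM in *Ppddm1*, against 5754, 6002 and 5590 CPM in wild type. Its libraries did not overlap, yet the difference did not pass the test (log2 fold change -0.28 ± 0.11 SE, adjusted p = 0.214 by the quasi-likelihood test of edgeR), except with both replicate 1 libraries left out (adjusted p = 0.0127). Pp3c5_13519 on chromosome 5 had 4984, 5156 and 5038 CPM in *Ppddm1*, against 5603, 5412 and 5356 CPM in wild type. Pp3c8_7680 on chromosome 8 had 5302, 5281 and 4776 CPM in *Ppddm1*, against 5451, 5277 and 5120 CPM in wild type, and became the highest gene of the mutant. These 3 genes stood well above the rest in both genotypes, since no other member had more than 4204 CPM in any library.

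The fourth most abundant gene, on chromosome 2, was the exception. It had 3312, 2051 and 1717 CPM in *Ppddm1*, against 4152, 4204 and 4085 CPM in wild type, and took rank 15 in *Ppddm1*. The wild type libraries lay close together and all *Ppddm1* libraries below them, with replicate 1 of the mutant in between. The fitted log2 fold change of *Ppddm1* over wild type was -0.84 ± 0.21 (SE), with an edgeR adjusted p of 0.0437. The change was under 2-fold, and the adjusted p ranged from 5.3e-08 to 0.388 over the alternative settings. With both replicate 1 libraries left out the log2 fold change was -1.17. The adjusted p passed 0.05 without *Ppddm1* replicate 1 but not without any of the other 5 libraries (adjusted p from 0.0648 to 0.143). This gene alone carried -0.179 of the -0.567 points in the summed share.

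The next 6 were Pp3c21_3950, Pp3c18_8100, Pp3c7_6560, Pp3c10_17760, Pp3c22_540 and Pp3c19_20900, which averaged from 3029 to 3656 CPM in *Ppddm1* and from 3066 to 3610 CPM in wild type. The libraries of both genotypes overlapped for each of them. Over the 9 genes that did not pass the test, the log2 fold changes ran from -0.28 to 0.08 and the adjusted p-values from 0.214 to 0.995 (edgeR). Of the 10 highest genes of *Ppddm1*, 9 were also among the 10 highest of wild type.

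**Figure D2:**
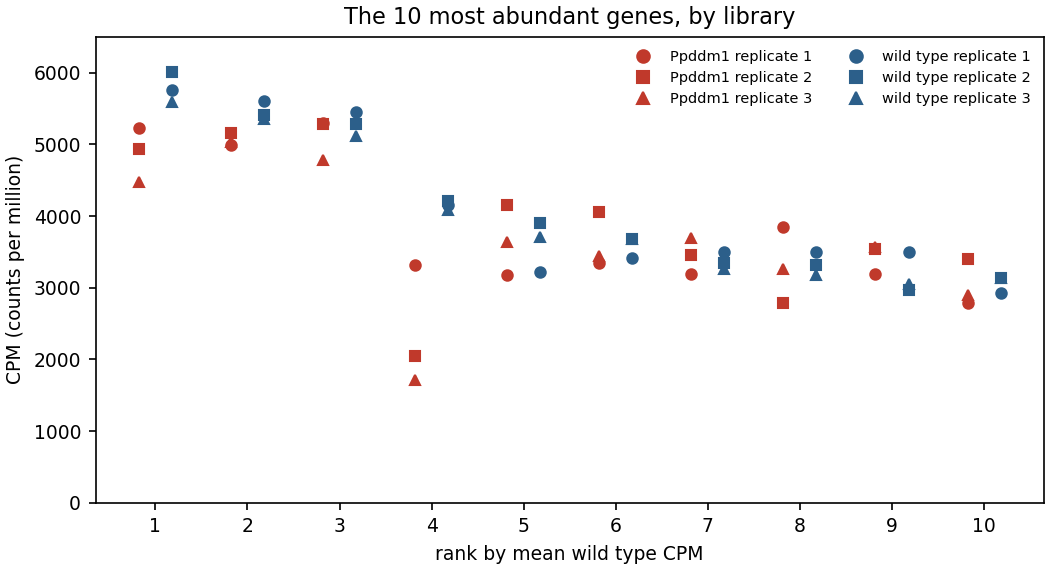
Level in CPM (y axis) of the 10 most abundant genes in each library, ordered by mean wild type level (x axis), with *Ppddm1* left of wild type and the symbol giving the replicate. At rank 4 the 3 *Ppddm1* libraries sit between 1717 and 3312 CPM, below the wild type libraries at 4085 to 4204 CPM, while 7 of the other 9 genes overlap between genotypes.

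The spread between libraries was far above counting error. A member had at least 844 counts in every library, so that counting alone would give a median CV (SD over mean) of 1.62% in *Ppddm1* and 1.83% in wild type. The observed median CV was 13.1% in *Ppddm1* and 7.50% in wild type. The *Ppddm1* libraries were the more variable ones for 140 of the 200 genes. The next 200 genes by wild type level had medians of 11.2% in *Ppddm1* and 7.03% in wild type, and were more variable in *Ppddm1* for 132 genes. Over all 19626 tested genes the medians had the opposite order, with 14.9% in *Ppddm1* and 16.5% in wild type, and *Ppddm1* was the more variable for 8825. Counting alone would give all tested genes medians of 9.99% in *Ppddm1* and 11.3% in wild type. From replicates 2 and 3 alone, a choice made after seeing the data, the median CV of the members was 6.53% in *Ppddm1* and 2.44% in wild type, with *Ppddm1* higher for 156 members. The same 2 libraries per genotype gave all tested genes 9.71% in *Ppddm1* and 9.15% in wild type, with *Ppddm1* higher for 9912. The CV was under 10% for 75 members in *Ppddm1* and 132 in wild type, and over 25% for 29 in *Ppddm1* and 10 in wild type.

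The steadiest members in wild type were Pp3c6_12510, with 2411, 2436 and 2400 CPM, and Pp3c15_16690, with 1099, 1117 and 1100 CPM. The least steady were Pp3c22_12650 and Pp3c6_1600. Pp3c22_12650 had 1169, 764 and 838 CPM in *Ppddm1*, against 1831, 809 and 957 CPM in wild type. Pp3c6_1600 had 1072, 826 and 980 CPM in *Ppddm1*, against 1059, 542 and 557 CPM in wild type. In both genes replicate 1 was the highest library of its genotype, and wild type replicate 1 set the large CV (46.1% and 40.9%).

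Replicate 1 stood apart from replicates 2 and 3 in each genotype over the 200 genes. It was the library farthest from the median of its genotype for 122 members in *Ppddm1* and for 140 in wild type. The Pearson correlation of log2 CPM across the 200 genes was 0.973 between *Ppddm1* replicates 2 and 3, and 0.874 and 0.903 between those and *Ppddm1* replicate 1. It was 0.995 between wild type replicates 2 and 3, and 0.921 and 0.924 between those and wild type replicate 1. *Ppddm1* replicate 1 correlated best with wild type replicate 1 (0.955). It also correlated more with wild type replicates 2 (0.909) and 3 (0.910) than with either other library of its own genotype. Its PpDDM1 level of 1.06 CPM was nevertheless that of a mutant library. Genes are not independent replicates, and these values are descriptions. Wild type replicates 2 and 3, which the labels put in different batches, were the closest pair, with a median difference of 1.04-fold. Their counts differed beyond counting error (chi-square 6.48 per degree of freedom over the 200 genes, the lowest of the 15 library pairs). The pair was therefore not treated as 1 library deposited again, and both were kept. At these depths separate libraries are bound to exceed counting error, so the value does not show that the libraries came from separate cultures.

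No member differed past the threshold between the batches of the labels. In a model with genotype and batch, 0 of the 200 genes differed between batches at an adjusted p under 0.05 by edgeR's quasi-likelihood test, and 0% of all tested genes did. Limma-voom also gave 0. No member reached an unadjusted p of 0.05 in the edgeR test, against 306 of the 19626 tested genes. The fitted log2 differences of batch 2 over batch 1 lay between -0.41 and 0.32. Batch 1 holds both replicate 1 and replicate 2, whose difference enters the error of this test.

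**Figure D3:**
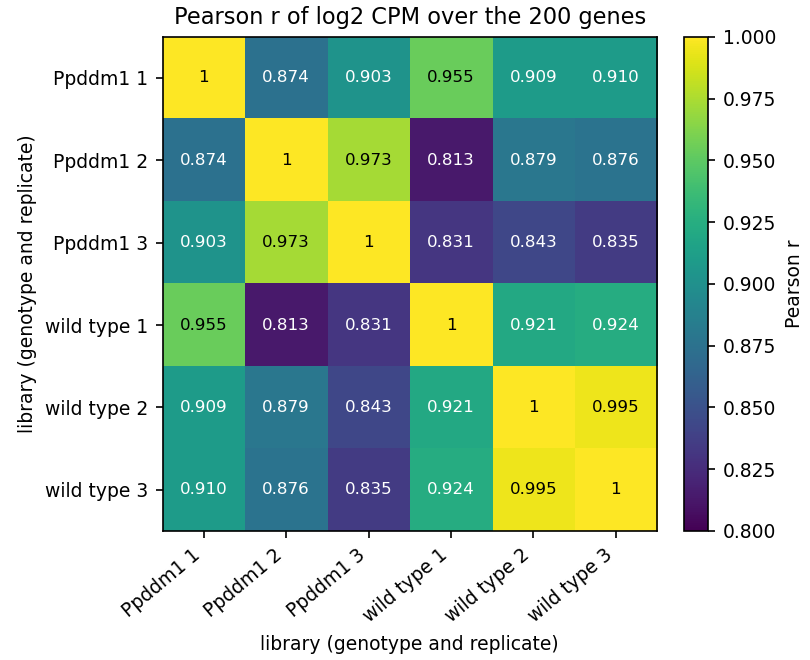
Pearson correlation of log2 CPM across the 200 genes for each pair of libraries (colour and printed value), with *Ppddm1* before wild type on both axes. Replicates 2 and 3 of a genotype correlate at 0.973 in *Ppddm1* and 0.995 in wild type, and the 2 replicate 1 libraries at 0.955.

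In *Ppddm1*, 5 of the 200 most abundant genes were lower by 2-fold or more and none was higher. Calls needed a change of at least 2-fold and, in edgeR's quasi-likelihood test, an adjusted p under 0.05 (Benjamini-Hochberg over all genes and TEs tested). The 5 lower genes were 2.5% of the members, and 2.46% of all tested genes were called lower. No member was called higher by edgeR, DESeq2 or limma-voom or at an unadjusted p under 0.05 with 2-fold, and 0.545% of all tested genes were called higher. The next 200 genes by level also had 5 called lower and 0 called higher. The median log2 fold change of the members was -0.02 and that of all tested genes was 0.01, with the middle 50% of the members between -0.21 and 0.13. Scaling by library totals alone moved the median of the members to 0.01 and that of all genes to 0.05, so the sign of the small median shift of the members depends on the scaling.

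By the adjusted p alone, with no threshold on the fold, 15 members were lower (7.5%) and 1 was higher (0.5%). Of all tested genes, 4.38% were lower and 1.31% higher by this measure, and of the next 200 genes 14 were lower and 3 higher. The summed level of the 15 lower members was 1.03% ± 0.193 of all counts in *Ppddm1* and 1.78% ± 0.0716 in wild type (SD, n = 3 each). The members without such a fall together held 20.1% ± 0.250 of the counts in *Ppddm1* and 19.9% ± 0.285 in wild type (SD, n = 3 each). These sums describe genes picked on the same libraries and are not tested. With *Ppddm1* replicate 1 left out the 15 became 38, and with *Ppddm1* replicate 2 left out 9. They became 7 when *Ppddm1* replicate 3, wild type replicate 2 or wild type replicate 3 was left out. The 1 higher became 9 without *Ppddm1* replicate 1, 2 without wild type replicate 1 and 0 without any of the other 4 libraries. Shares of all tested genes by adjusted p alone are not given here for these fits, so the counts are not read as particular to the members. For 30 members all *Ppddm1* libraries were below all wild type libraries (15%, against 10.9% of all tested genes), and for 25 they were above (12.5%, against 12.3%). Picking genes for a high wild type level itself favours lower values in the mutant.

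**Figure D4:**
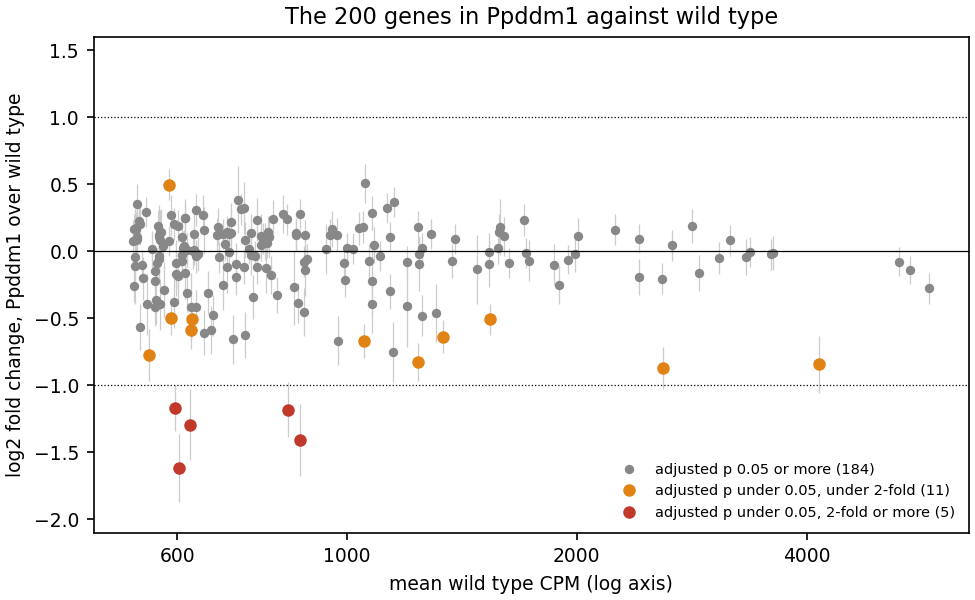
Log2 fold change of *Ppddm1* over wild type (y axis, bars are 1 standard error) against the mean wild type CPM (log x axis) for the 200 genes, with dotted lines at 2-fold. The 5 genes called lower lie between -1.62 and -1.17, and the 11 others with an adjusted p under 0.05 between -0.87 and 0.50.

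Pp3c25_10190 on chromosome 25, at rank 153, fell the most. It had 256, 206 and 144 CPM in *Ppddm1*, against 404, 689 and 716 CPM in wild type, without overlap. The fit gave a log2 fold change of -1.62 ± 0.25 (SE) with an edgeR adjusted p of 0.00538, which is 0.326 of the wild type level, and the gene ranked 821 in *Ppddm1*. Pp3c2_29800 on chromosome 2, at rank 79, had 497, 285 and 220 CPM in *Ppddm1*, against 757, 923 and 922 CPM in wild type, again without overlap. Here the fit gave -1.41 ± 0.27 (SE) with an edgeR adjusted p of 0.0155. Over the alternative settings the adjusted p ranged from 8.44e-10 to 0.0869 for Pp3c25_10190 and from 9.02e-10 to 0.13 for Pp3c2_29800, and both missed 0.05 in batch 1 alone (0.0633 and 0.112). With both replicate 1 libraries left out, the log2 fold change was -2.06 for Pp3c25_10190 and -1.91 for Pp3c2_29800.

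The other 3 genes called lower held the ranks 84, 142 and 158. The gene at rank 84, on chromosome 18, had 435, 423 and 276 CPM in *Ppddm1*, against 617, 951 and 946 CPM in wild type (log2 fold change -1.18). The gene at rank 142, on chromosome 21, had 380, 237 and 166 CPM in *Ppddm1*, against 532, 674 and 665 CPM in wild type (log2 fold change -1.29). The gene at rank 158, on chromosome 9, had 348, 258 and 208 CPM in *Ppddm1*, against 537, 614 and 638 CPM in wild type (log2 fold change -1.17).

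In all 5 genes *Ppddm1* replicate 1 was the highest mutant library and wild type replicate 1 the lowest wild type library, so the genotypes lay closest in replicate 1. Without *Ppddm1* replicate 1, 8 members and 2.67% of all tested genes were called lower. With replicate 1 of both genotypes left out, an alternative added after seeing the data, 9 members were called lower, the 5 genes among them. In that fit 3.25% of all tested genes were called lower. By the adjusted p alone it gave 49 members lower and 23 higher. The share of all tested genes by this measure in that fit is not given here, so these counts are not read as particular to the members. Within batch 1, with 2 libraries of each genotype, edgeR called 0 members in either direction and 1.23% of all tested genes lower. Batch 2, with a single library per genotype, could not be tested. With 200 genes picked on all 6 libraries 2 were called lower, and with 200 picked on 1 wild type library and fitted without it 4, 4 and 5 were. The fits without wild type replicates 1, 2 and 3 called 2.66%, 1.97% and 1.76% of all tested genes lower.

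**Figure D5:**
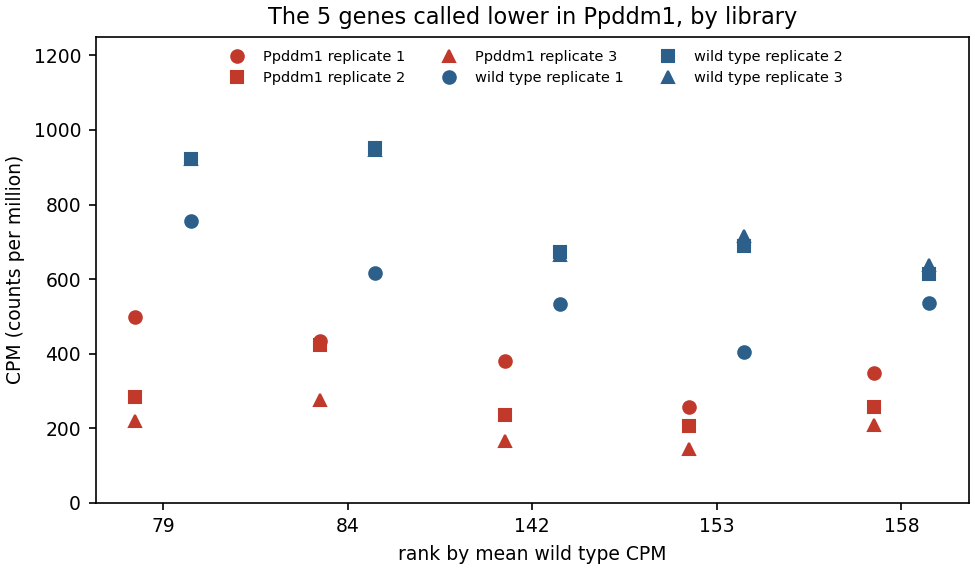
Level in CPM (y axis) of the 5 genes called lower in *Ppddm1*, named by their rank in wild type (x axis), in each library, with *Ppddm1* left of wild type and the symbol giving the replicate. In each gene the circle of *Ppddm1* replicate 1 is the highest mutant point and the circle of wild type replicate 1 the lowest wild type point. Of the mutant and wild type points with the same symbol, the circles therefore lie closest to each other. Wild type replicates 2 and 3 nearly coincide.

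The only member that passed the adjusted p in the other direction was Pp3c6_14200 on chromosome 6, at rank 163. This gene is named because it was the only one, after its values had been seen. It had 842, 856 and 832 CPM in *Ppddm1*, against 618, 595 and 542 CPM in wild type, with all mutant libraries above all wild type libraries. The increase was under 2-fold (log2 0.50 ± 0.11 SE, edgeR adjusted p = 0.0225). Leaving out *Ppddm1* replicate 2 gave an adjusted p of 0.0682 and leaving out *Ppddm1* replicate 3 gave 0.0981. It was 0.107 without wild type replicate 2 and 0.17 without wild type replicate 3, within a range of 0.000362 to 0.493 over all alternatives.

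The membership of the 200 was largely shared by the genotypes. Of the 200 highest genes of *Ppddm1*, 170 were members (85% of each list). By single library, 161 to 173 members were among the 200 highest of a *Ppddm1* library and 183 to 189 among those of a wild type library. In all 6 libraries at once, 137 members (68.5%) were. The 30 genes that entered the *Ppddm1* list all ranked within the first 342 of wild type, and 3 of them had an adjusted p under 0.05. The highest of them was Pp3c12_6700 on chromosome 12, with 617, 669 and 797 CPM in *Ppddm1*, against 566, 465 and 473 CPM in wild type (adjusted p = 0.088 from edgeR). The second was Pp3c18_5520 on chromosome 18, with 523, 768 and 705 CPM in *Ppddm1*, against 411, 578 and 586 CPM in wild type. Of the 30 genes that left the list, 25 were still within the first 400 of *Ppddm1* and 9 had an adjusted p under 0.05. The highest of them in wild type were Pp3c2_29800 and the gene at rank 84. By the adjusted p alone, 4.38% of all tested genes were lower and 1.31% higher. The genes that entered or left were picked on a shift in rank between these same libraries. That choice itself favours a low adjusted p, so the counts are descriptions.

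The limit of 200 cut through a dense range of levels. The last 5 genes inside it were Pp3c18_18670, Pp3c5_3340, Pp3c7_3360, Pp3c6_7200 and Pp3c16_5650, with mean wild type levels of 528.1, 527.9, 527.0, 525.8 and 525.3 CPM. The first 5 outside it were Pp3c10_18330, Pp3c20_6430, Pp3c18_5520, Pp3c13_4250 and Pp3c9_1240, with 524.9, 524.7, 524.7, 524.5 and 522.1 CPM. The SD over the wild type libraries was 6.11 to 121 CPM for these 10 genes, larger than the step between any neighbours, so the order at the limit is not resolved.

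The members lay on all 27 chromosomes and on no unplaced scaffold, where 42 genes were tested. The chromosome was read from the identifier. Chromosome 3 held the most (15 of 1116 tested genes, 1.34%), followed by chromosome 1 (14 of 1294, 1.08%). Relative to the tested genes, members were densest on chromosomes 22 (11 of 600, 1.83%), 19 (10 of 585, 1.71%) and 18 (10 of 588, 1.70%). They were sparsest on chromosome 23, with 1 of 604 tested genes (0.166%), and on chromosome 17, the chromosome of PpDDM1, with 3 of 679 (0.442%). On chromosome 23 the next 200 genes by level numbered 11, so the low count there did not extend to genes just below the limit. Chromosomes 22 and 17 held 4 each of the next 200. A spread in proportion to the tested genes would put 6.16 members on chromosome 23, 6.92 on chromosome 17 and 6.11 on chromosome 22. No test was run on these counts.

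The members stood among genes of ordinary level, and 12 of them were next to another member. The genes directly before and after a member in the order of identifiers had a median wild type level of 8.09 CPM, against 7.27 CPM beside all tested genes and 11.6 CPM beside the next 200 genes. Of these neighbours, 38.8% were under 1 CPM, against 37.4% beside all tested genes. The 12 members (6%) with a member beside them formed 6 pairs, and the longest run was 2 genes. Of the genes beside members 3% were members, against 1% of those beside the next 200 genes and 0.671% of those beside all tested genes. No test was run on these shares. The 3% and the 1% are unlike measures, since the 1% counts members beside genes of another list. Counted among themselves, the next 200 genes formed 7 pairs, against the 6 of the members.

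The 6 pairs were Pp3c10_25450 with Pp3c10_25460, Pp3c1_8280 with Pp3c1_8290, Pp3c3_10740 with Pp3c3_10750, Pp3c15_16690 with Pp3c15_16700, Pp3c22_7390 with Pp3c22_7400, and Pp3c18_17790 with Pp3c18_17791. None of these 12 genes passed the adjusted p. Within the last pair the counts were nearly equal in every library. Pp3c18_17791 had 589, 344 and 393 CPM in *Ppddm1* and 632, 550 and 527 CPM in wild type, and Pp3c18_17790 had 582, 364 and 398 CPM in *Ppddm1* and 646, 521 and 522 CPM in wild type. The ratio of Pp3c18_17791 to Pp3c18_17790 stayed between 0.945 and 1.06. Pp3c3_10750 and Pp3c3_10740 kept a ratio between 1.06 and 1.12. In contrast, the ratio of Pp3c22_7400 to Pp3c22_7390 ran from 0.841 to 1.56. Reads with several matches were assigned at random by the authors and the strand setting of the counting is not given in the sources used here. Counts of near-identical or overlapping genes are therefore uncertain. Sequences of these identifiers were not used here, so near-copies among the members were not counted, and whether these pairs share reads was not tested.

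Identifier numbers that do not end in 0 were rare among the members (3 of 200, 1.5%), less than the 3.70% of all tested genes and the 9.56% of all gene rows. Of the 5 genes called lower, those at ranks 142 and 153 had neighbours that were also called lower. Of the 10 genes directly beside the 5, 3 were called lower, 1 beside rank 153 was called higher, and 2 had too few counts to be tested. Of all tested genes, 2.46% were called lower and 0.545% higher. The share of called genes beside other genes called lower is not given here. The gene at rank 142 was lower together with both of its neighbours, which averaged 27.7 and 511 CPM in wild type. Their log2 fold changes were -1.09 and -1.21 (adjusted p = 0.00412 and 0.023 from edgeR). Whether these genes share reads was not tested.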

How the data were processed

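The authors deposited unnormalized counts of single-end polyA reads over genes and TEs for 3 *Ppddm1* and 3 wild type libraries made from 500 ng of total RNA. Per the submitters' processing notes, the tools were STAR 2.7.0f, cutadapt 1.15 and Trim Galore 0.6.0. The methods name the v3.3 genome and annotation and the random assignment of multimapped reads. Random assignment makes counts of near-identical genes uncertain.

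The members are the 200 gene rows with the highest mean CPM over the wild type libraries, with CPM taken over the total of all rows. Of 273318 rows, 20647 reached a summed count of 10 (19626 genes and 1021 TEs). These entered a robust quasi-likelihood fit of genotype alone in edgeR 4.0.16 (R 4.3.3), scaled by TMM. P-values were Benjamini-Hochberg adjusted over all of them. The methods of the study name Limma. The script was also run on simulated counts with known changes, and the outcome is not given here. Those counts were drawn independently for each library, so they do not hold the departure of replicate 1. Batch was tested as a term beside genotype. Shares were compared by exact permutation. DESeq2 1.42.0 and limma-voom (limma 3.58.1) were among the alternatives. Figures were drawn with matplotlib 3.10.9.

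The members and the rule for named genes were set with earlier results of these data known. The rule takes the 10 most abundant members, the 5 genes on each side of the limit, the 2 members with the highest and the 2 with the lowest wild type CV, the 2 strongest called changes in each direction, called batch differences, adjacent runs, the 2 highest genes that entered or left the list in *Ppddm1*, and PpDDM1. Because 0 identifiers of the count table are in the reference table, lists by function were not run and the gene at rank 4 and the gene at rank 84 are given by rank.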

Additional observations from a re-analysis of the deposited data

How the results depend on the processing

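The 5 members called lower became 2 with no count filter, 0 in batch 1 alone, 9 with both replicate 1 libraries left out (added after seeing the data), 15 by adjusted p alone and 9 with glmTreat against a 1.2-fold change. The count ranged from 4 to 8 with 1 library left out. With members chosen on all 6 libraries it was 2, on the *Ppddm1* libraries 0, with the 100 most abundant genes 2 and with the 400 most abundant genes 10. The 0 members called higher became 1 by adjusted p alone and stayed 0 under the 25 other alternatives. The 15 members lower by adjusted p alone ranged from 7 to 38 with 1 library left out, and numbered 0 in batch 1 alone and 49 without both replicate 1 libraries. The 1 higher ranged from 0 to 9 with 1 library left out, and numbered 2 with no count filter, 3 with DESeq2, 0 with the batch as a term, 0 in batch 1 alone and 23 without both replicate 1 libraries. With the replicate number as a block, 2 members and 2.65% of all tested genes were called lower. By adjusted p alone, 29 members were lower and 4 higher with the block. For the counts by adjusted p alone under these alternatives, no share of all tested genes is given here. Correlations of the deviations from the genotype mean did not settle whether the numbers mark a pairing. Between same-numbered libraries they were 0.298, 0.236 and -0.016 over all tested genes. Over the members they were 0.447, 0.586 and -0.120. *Ppddm1* replicate 2 followed wild type replicate 3 more than wild type replicate 2 over the members (0.628 against 0.586). Over all tested genes the order was reversed (0.213 against 0.236).

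The lower share in *Ppddm1* (-0.567 points) was -0.173 with members chosen on all 6 libraries and 0.268 with members chosen on the *Ppddm1* libraries, and lay within the replicate spread of the main value under the 9 other alternatives, from -0.696 to -0.344 with 1 library left out. The share of each library's own 200 genes differed by -0.107 points and reversed to 0.0553 without *Ppddm1* replicate 3 and 0.0507 without wild type replicate 1, and lay between -0.265 and 0.0553 with 1 library left out. No member differed between batches under any of the 6 alternatives. Of 237 values of named genes under alternatives, 216 kept their side of the threshold and none that passed it changed sign. With no count filter and with the block, Pp3c25_10190 (edgeR adjusted p = 0.0544 and 0.0869) and Pp3c2_29800 (0.13 and 0.0582) missed the threshold. The cause of these changes was not tested. The members had at least 844 counts in every library, and their spread between libraries exceeded counting error. Without both replicate 1 libraries the median CV of the members was 6.53% in *Ppddm1* and 2.44% in wild type, and with all 6 libraries it was 13.1% in *Ppddm1* and 7.50% in wild type.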
